A study of Mus musculus with 4 samples.

Results

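The 8 genes described here handle iron: Cp, Heph, Slc40a1, Tfrc, Slc11a2, Fth1, Ftl1 and Trf. They were chosen by symbol from the 27998 genes listed in each count table, and all 8 were present in all 4 tables. The tables come from single-nucleus RNA sequencing of kidneys of C57BL/6 mice at post natal week 22. Libraries 1 and 2 of the untreated group were compared with libraries 1 and 2 of the losartan group, losartan being an antagonist of the AT1 receptor for angiotensin II. No allele, transgene or further agent is given for either group, and the sources used here name no dose, route, duration or sex. Labels call the 2 libraries of a group replicates without tying them to different animals, so p-values measure the spread between libraries, which may be technical.

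Iron enters most cells as transferrin, the plasma carrier encoded by Trf, bound to the transferrin receptor encoded by Tfrc. Slc11a2 encodes DMT1, which moves ferrous iron across membranes. Iron that is not used is stored in ferritin, a shell of heavy chains (Fth1) and light chains (Ftl1). Slc40a1 encodes ferroportin, the cell's iron exporter, and the exported iron is oxidised by multicopper ferroxidases, ceruloplasmin (Cp) and hephaestin (Heph). In the kidney, iron that passes the glomerular filter is taken back up along the tubule.

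Several of these transcripts carry an iron-responsive element, a hairpin bound by iron regulatory proteins when iron is scarce. In the 5′ UTR the bound hairpin blocks translation, and in the 3′ UTR it protects the transcript from decay. The pattern searched on the sense strand was a C, 5 stem bases, the 6-base loop CAGTGN and 5 bases that pair with the stem. It was found in 4 of the 8 genes, in 0 of the other iron, heme and copper genes listed below, and in 160 of 21901 searched genes (0.731%). These elements are shown because each matches a known kind of iron-controlled site, acting on translation in a 5′ UTR and on decay in a 3′ UTR. Hairpins with another loop or an unpaired stem base were not searched, so the other transcripts may still hold such a site. The 30-base windows, 5′ to 3′ from GENCODE M21 transcripts on GRCm38, have the loop in capitals:
Fth1 5′ UTR, chr19:9982731-9982760, plus strand: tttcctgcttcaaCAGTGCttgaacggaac
Ftl1 5′ UTR, chr7:45459779-45459808, minus strand: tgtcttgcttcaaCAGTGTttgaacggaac
Slc40a1 5′ UTR, chr1:45925465-45925494, minus strand: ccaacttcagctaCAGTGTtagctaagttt
Tfrc 3′ UTR, chr16:32631218-32631247, plus strand: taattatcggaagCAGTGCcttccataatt
Tfrc 3′ UTR, chr16:32631597-32631626, plus strand: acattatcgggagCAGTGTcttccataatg
Tfrc 3′ UTR, chr16:32631662-32631691, plus strand: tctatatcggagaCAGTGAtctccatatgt
Tfrc 3′ UTR, chr16:32631709-32631738, plus strand: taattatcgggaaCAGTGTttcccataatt

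The storage and export transcripts Fth1, Ftl1 and Slc40a1 each held 1 element in the 5′ UTR, a place shared with 31 genes (0.142%). The uptake receptor Tfrc held 4 in its 3′ UTR, where 129 genes (0.589%) had a match. No match in Cp, Heph, Slc11a2 or Trf says only that these letters are not in their annotated UTRs. On GRCm38 the genes lie on chromosome 3 from 19957054 to 20009145 (Cp), X from 96455359 to 96574485 (Heph), 1 from 45908068 to 45926523 (Slc40a1), 16 from 32608920 to 32632794 (Tfrc), 15 from 100387898 to 100425072 (Slc11a2), 19 from 9980598 to 9985098 (Fth1), 7 from 45457944 to 45459884 (Ftl1) and 9 from 103204001 to 103230444 (Trf). Cp overlaps Hps3 on the opposite strand, and the counting's use of strand is not stated.

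After filters, 35931 nuclei were kept, 8459 and 9043 untreated and 9043 and 9386 losartan, from tables of 42290414 to 59078762 UMIs (unique molecular identifiers, 1 per captured transcript). Clusters were made without the 8 genes and named from canonical markers, which placed 32324 nuclei in 22 classes and left 3607 unnamed. Of the classes, 18 had at least 10 nuclei in every library and are ordered below, and 15 had at least 50 and were tested. Of the 39654 barcodes, 149 occurred in more than 1 library. The class of proximal tubule nuclei not split by segment came almost wholly from losartan library 1 (1369 of 1407 nuclei) and is in no test except the sum over all proximal tubule nuclei. A level is the sum of a gene's UMIs over the nuclei of a class in a library, given in counts-per-million (CPM) of the UMIs in that sum. CPM carries no correction for gene length, so levels are compared between classes for 1 gene, never between genes.

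Cp, the circulating copper ferroxidase, was highest in parietal epithelial nuclei, the lining of Bowman's capsule. Its level there was 2321 and 2174 CPM in the untreated libraries and 1475 and 2264 CPM in the losartan libraries. Injured proximal tubule nuclei had 911, 828, 1378 and 1095 CPM in the same order of libraries, and fibroblasts had 1019, 937, 905 and 1018 CPM. These last 2 classes overlapped each other, and both lay below every parietal value. Thin limb followed with 419 to 753 CPM and urothelium with 423 to 737 CPM, which overlapped.

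Proximal tubule S3 nuclei had 339, 347, 119 and 222 CPM of Cp, while S1 and S2 nuclei had means of 33.0 and 32.8 CPM over the 4 libraries, the lowest of the 18 classes and 1.60% and 1.59% of the parietal mean. Podocytes, the other epithelium of the glomerulus, had 35.6, 26.5, 97.2 and 25.3 CPM. From lymphocytes down to S2 the ordered neighbours overlapped in each case. After every nucleus was thinned to 1000 UMIs, 82.6% (exact binomial 95% interval 76.2 to 87.8%) of untreated parietal nuclei and 53.3% (50.9 to 55.7%) of untreated fibroblasts held a Cp UMI, against 4.21% (3.12 to 5.55%) in untreated S1. Unthinned, the shares were 95.5%, 83.3% and 16.4%, at median depths of 3708, 3393 and 4518 UMIs. These intervals cover counting error only.

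**Figure D1:**
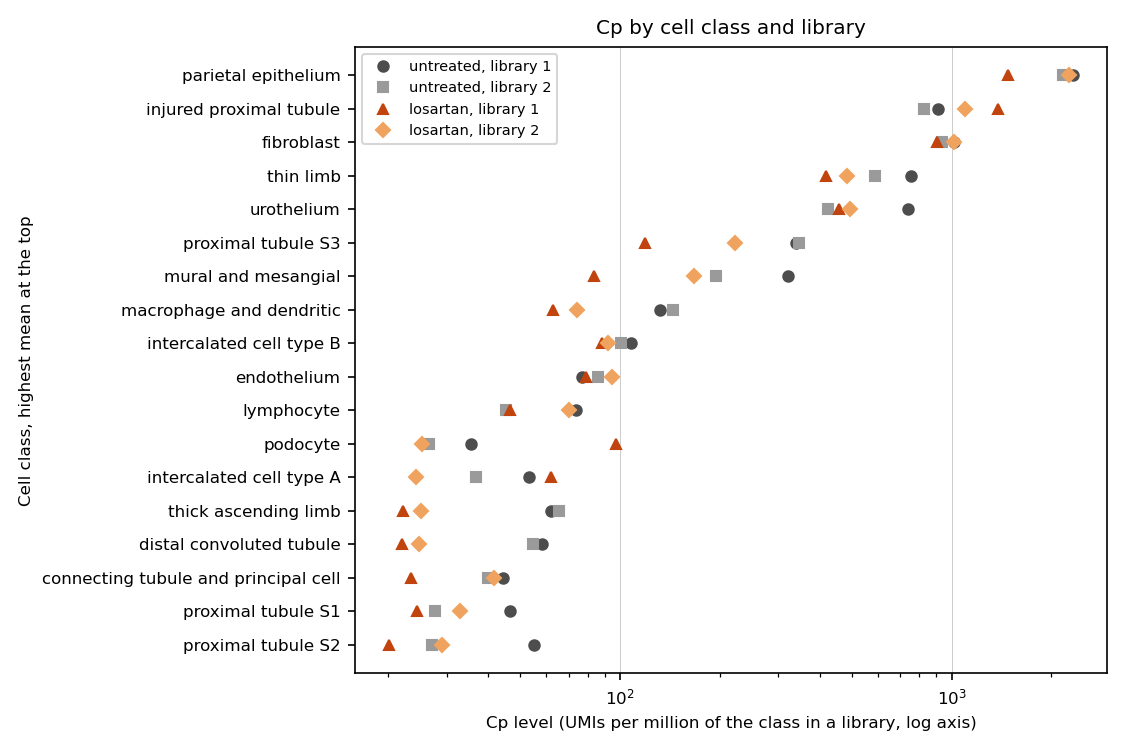
Cp level in CPM (log axis) for 18 cell classes, with 1 point per library, grey for untreated and orange for losartan. Parietal epithelium lies highest at 1475 to 2321 CPM and proximal tubule S2 lowest on average at 32.8 CPM.

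Heph, the membrane-bound ferroxidase, had a different order. It was highest in type B intercalated cells, with 59.7 and 62.4 CPM untreated and 58.2 and 66.7 CPM with losartan, followed by urothelium (40.2 to 59.4 CPM) and type A intercalated cells (38.4 to 53.8 CPM). These neighbours overlapped. Proximal tubule S2, S3 and podocytes held the least, with means of 1.95, 2.07 and 1.54 CPM, and both podocyte losartan libraries held no Heph UMI. A count of 0 in podocytes allowed up to 8.5 to 8.7 CPM there. The order at the top depended on doublet removal: with doublets kept, the mean of type B intercalated cells was 36.2 CPM and urothelium led with 51.2 CPM.

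Slc40a1, the exporter, was highest in fibroblasts at 153 and 160 CPM untreated and 200 and 205 CPM with losartan, above every value of the other 17 ordered classes. Urothelium came second at 43.5 to 88.4 CPM, followed by connecting tubule and principal cells at 45.3 to 63.2 CPM. Macrophage and dendritic nuclei, a class known for exporting iron recovered from red cells, had 16.7, 36.3, 41.8 and 27.5 CPM, 17.0% of the fibroblast mean. Podocytes were lowest at 3.13 CPM on average. Thinned to 1000 UMIs, 10.7% (9.29 to 12.3%) of untreated fibroblasts held an Slc40a1 UMI, against 2.23% (1.16 to 3.87%) of untreated macrophage and dendritic nuclei and 0.597% (0.0724 to 2.14%) of untreated podocytes. Unthinned, these shares were 35.04%, 5.96% and 1.19%, at median depths of 3393, 2718 and 3689 UMIs.

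Of the 2 uptake genes, Tfrc was highest in the distal convoluted tubule, with 66.0, 62.7, 85.6 and 65.8 CPM, and the thick ascending limb, with 63.9, 63.7, 61.9 and 62.2 CPM. These 2 classes overlapped, and the thick ascending limb did not overlap the next class. Fibroblasts and endothelium held the least Tfrc, with means of 6.60 and 7.10 CPM. Slc11a2 peaked instead along the proximal tubule, with 72.7 to 94.4 CPM in S1, 76.7 to 88.4 CPM in S2 and 71.6 to 93.4 CPM in S3. The 3 segments overlapped. Every other class with at least 50 nuclei in each library had a lower mean, from 24.4 CPM in endothelium to 43.5 CPM in type A intercalated cells. Injured proximal tubule nuclei, with 26 in losartan library 1, are not part of this comparison.

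Both ferritin chains were highest in the proximal tubule but at opposite ends of it. Fth1 led in S3 with 653 and 1853 CPM untreated and 809 and 1097 CPM with losartan, and Ftl1 in S1 with 356 and 545 CPM untreated and 401 and 464 CPM with losartan. In S1 the Fth1 level was 325 to 610 CPM, below every S3 value. In S3 the Ftl1 level was 202 to 427 CPM, which overlapped S1. S2 nuclei had 380 to 745 CPM of Fth1 and 275 to 461 CPM of Ftl1, so libraries of neighbouring segments overlapped for both genes. Outside the tubule, Fth1 overlapped S1 in classes such as mural and mesangial nuclei (292 to 651 CPM) and fibroblasts (236 to 537 CPM). Untreated library 1 was the lowest of the 4 for Fth1 in S1, S2 and S3 and also had the lowest mitochondrial share of UMIs, 0.282% against 0.315 to 0.637% in the other libraries. The part of that difference in the ferritin levels was not tested.

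Ferritin was higher still outside the named classes. An unnamed cluster of 571 nuclei, with globin transcripts among its leading genes and a median mitochondrial share of 2.92%, had 3058 to 3804 CPM of Fth1 and 1270 to 1485 CPM of Ftl1 in the 4 libraries. Near copies of Ftl1 exist in the genome, and the listed copy Gm10116 had 263 UMIs against 48638 for Ftl1 over all kept nuclei.

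Trf was highest outside the tubule. Macrophage and dendritic nuclei (mean 33.1 ± 33.3 CPM, SD, n = 4 libraries) and fibroblasts (32.9 ± 6.63 CPM) had the highest means, and tubule classes had 1.67 to 3.53 CPM. The macrophage values were far apart, at 39.7 and 77.4 CPM untreated and 4.18 and 11.0 CPM with losartan, whereas fibroblasts had 26.6, 28.0, 40.4 and 36.4 CPM. The liver, known as the main source of plasma transferrin, was not sampled here.

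**Figure D2:**
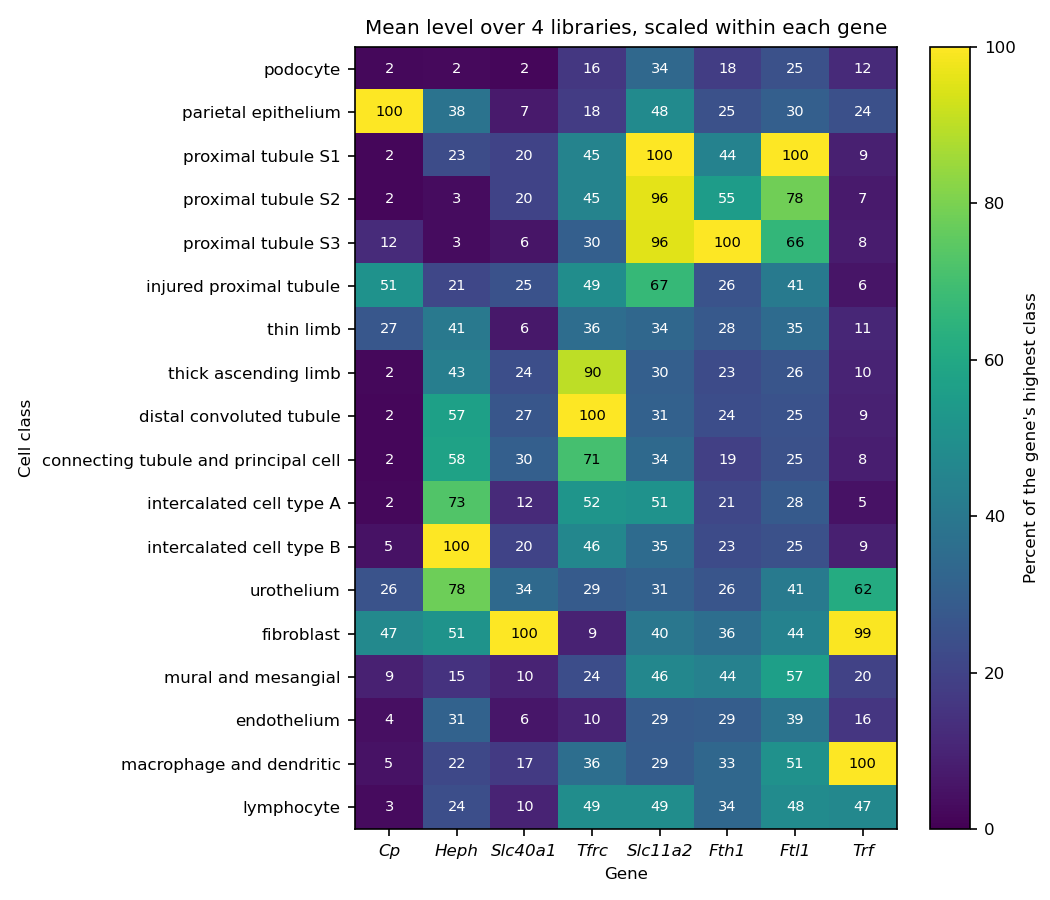
Mean level of each gene over 4 libraries in 18 classes, as a percent of that gene's highest class, so that columns cannot be compared with each other. Cp is concentrated in parietal, injured tubule and fibroblast nuclei. Slc11a2 is highest in the proximal tubule, and Tfrc in the thick ascending limb and distal convoluted tubule. The ferritins are also highest in the proximal tubule, but Fth1 in mural and mesangial nuclei overlapped its S1 values.

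Across the 18 class means, on the log2(CPM + 5) scale, the ferritin genes had the highest Pearson correlation of any pair of the 8 (0.84), followed by Slc11a2 with Ftl1 (0.74) and with Fth1 (0.70). Heph ran lower where these were higher (-0.58 with Fth1, -0.53 with Ftl1 and with Slc11a2), and Cp with Slc40a1, its partner in export, gave 0.12. These are descriptions over 18 points that share libraries and depth. The genes of all those measured with patterns most like each member were, by the same measure, Cdk8 (0.86), Adra1b (0.84) and Cpe (0.83) for Cp, Zfp609 (0.89), Memo1 (0.88) and Vapa (0.88) for Heph, and Daam1 (0.79), Zfp809 (0.78) and B230354K17Rik (0.73) for Slc40a1. For Tfrc they were Ppargc1a (0.93), Strbp (0.92) and Nme7 (0.92), and for Slc11a2 they were Slc19a1 (0.96), Grtp1 (0.95) and Glyctk (0.94). For Fth1 they were Acy1 (0.93), Ttc36 (0.91) and Lap3 (0.91), for Ftl1 Ass1 (0.93), Inpp5b (0.91) and Nus1 (0.91), and for Trf Tmem173 (0.94), Pid1 (0.93) and Rnase4 (0.91).

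The series compared losartan with untreated kidneys. In the sum of all kept nuclei, Cp was 267 and 262 CPM untreated and 89.8 and 178 CPM with losartan. Both losartan libraries were lower, and the log2 change was -0.84 ± 0.31 (SE), which did not pass edgeR's quasi-likelihood test (Benjamini-Hochberg adjusted p = 0.212). None of the 8 genes passed, as none of 18402 tested genes did (0.0%), while 4075 genes, Cp and Slc11a2 among them, had an unadjusted p under 0.05. DESeq2 called 1645 genes and 0 of the 8. The groups did not overlap for 4 of the 8, beside 59.0% of all tested genes. Slc11a2 had 54.7 and 43.7 CPM untreated and 71.0 and 56.5 CPM with losartan (log2 0.53 ± 0.20, adjusted p = 0.218).

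The whole-kidney sum mixes how many nuclei each class gave with the level in each class. Injured proximal tubule nuclei made up 5.10% and 5.40% of the untreated nuclei but 0.288% and 1.58% of the losartan nuclei, and they carried 23.0% and 24.3% of the untreated Cp UMIs but 2.93% and 9.14% with losartan. Counted against all UMIs of a library, their Cp had a mean of 62.5 CPM untreated and 9.44 CPM with losartan, within whole-kidney means of 264 ± 3.71 and 134 ± 62.3 CPM (SD, n = 2 libraries each). In the same order fibroblasts supplied 83.4 and 54.9 CPM, S3 28.7 and 14.3 CPM and parietal epithelium 20.4 and 10.4 CPM. The thick ascending limb and distal convoluted tubule supplied 6.83 and 4.05 CPM untreated and 1.76 and 1.24 with losartan. Without the injured nuclei the whole-kidney values were 220, 215, 87.3 and 164 CPM. Shares of nuclei were not tested, and fewer cells of a class cannot be told apart from fewer nuclei recovered.

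**Figure D3:**
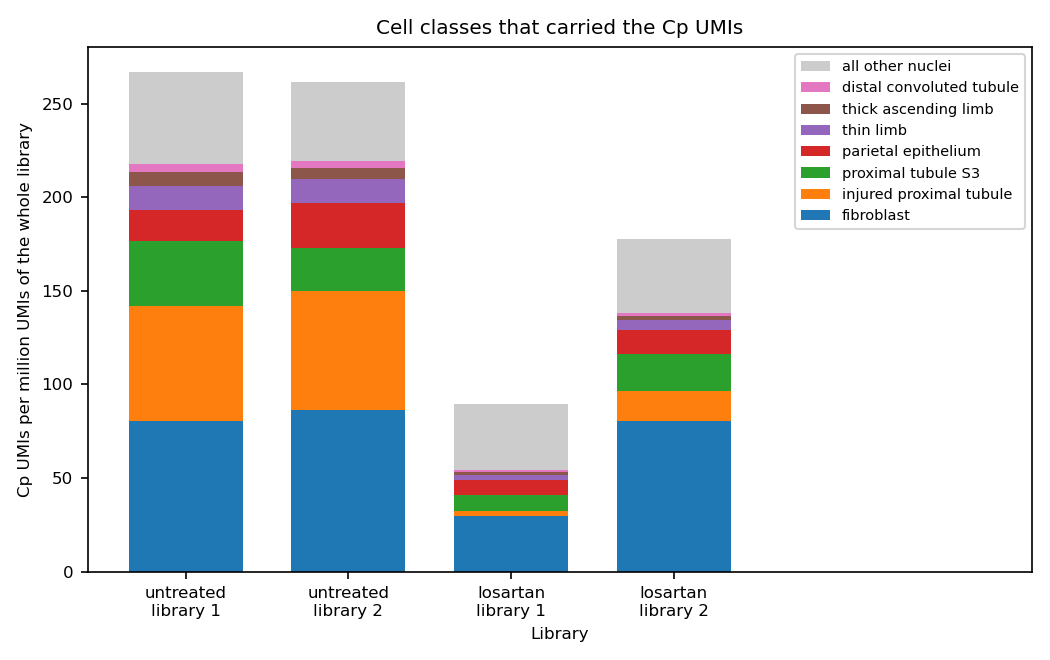
Cp in CPM of the whole library, 1 bar per library, divided by the cell class that carried them. Injured proximal tubule nuclei supply 61.3 and 63.6 CPM in the untreated libraries and 2.63 and 16.3 in the losartan libraries.

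Within classes, 3 of the 100 member tests that could be made over the 15 classes passed an adjusted p of 0.05, against 505 of 150240 tests of all genes (0.336%). In the other 20 combinations of gene and class the counts were too low for the filter. Cp was called lower in the thick ascending limb and the distal convoluted tubule, and Fth1 was called higher in mural and mesangial nuclei. TMM scaling centres the changes of all genes near 0, and their median log2 change was between -0.02 and 0.01 in each class.

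In the thick ascending limb Cp was 61.9 and 65.3 CPM untreated and 22.1 and 25.1 CPM with losartan, with no overlap between the groups. As many as 25.7% of tested genes were lower without overlap in this class. The log2 change was -1.38 ± 0.16 (SE), with an adjusted p of 0.0266 by edgeR's quasi-likelihood test, beside 36 of 13208 genes called in that class (0.273%). The distal convoluted tubule had 58.2 and 54.6 CPM untreated and 21.9 and 24.7 CPM with losartan, again without overlap, beside 24.6% of tested genes lower in that way (log2 -1.24 ± 0.17, adjusted p = 0.0466, 0.197% of 12166 genes called). Without losartan library 1 the adjusted p was 0.427 and 0.317 in the 2 classes, and without losartan library 2 it was 0.244 and 0.108.

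By the share of nuclei with a Cp UMI, these 2 classes lay close to S1, a class at the bottom of the order. Thinned to 1000 UMIs, 4.83% (3.95 to 5.84%) of untreated thick ascending limb nuclei and 4.68% (3.61 to 5.96%) of untreated distal convoluted tubule nuclei held a Cp UMI, beside 4.21% (3.12 to 5.55%) in S1, with intervals that overlapped. With losartan the shares were 2.15% (1.56 to 2.88%), 2.10% (1.39 to 3.04%) and 2.64% (2.02 to 3.38%). Unthinned they were 14.6%, 16.2% and 16.4% untreated and 7.39%, 8.71% and 12.0% with losartan, at median depths of 3614, 3760 and 4518 UMIs untreated and 3427, 3656 and 4562 UMIs with losartan. By CPM, untreated thick ascending limb and distal convoluted tubule nuclei lay above untreated S1 nuclei, which had 46.7 and 27.7 CPM. Whether any of these classes express Cp themselves was not tested, and the called falls are falls in Cp UMIs among their nuclei. Counts of empty droplets were not used here, so the part of free RNA in the falls was not tested.

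Markers of a class with much Cp were also at a lower level in the losartan libraries. The summed level of 9 injured proximal tubule markers in thick ascending limb nuclei was 820 and 1000 CPM untreated and 373 and 475 CPM with losartan, and in the distal convoluted tubule it was 751 and 1020 CPM untreated and 228 and 283 CPM with losartan. Of the 9 markers, 7 to 9 were detected in each library of both classes, and none was at 0 in all 4. The 9 include Spp1 and Akap12, and Akap12 is also among the parietal markers. Only the sum is given, so it does not show which markers fell. Whether these nuclei make the markers themselves, and the part of the marker levels in the Cp falls, was not tested. This marker sum was lower in both losartan libraries in all 15 tested classes, with a losartan to untreated ratio from 0.288 in the distal convoluted tubule to 0.756 in S3. The 10 parietal markers in the thick ascending limb were 1595 and 1445 CPM untreated and 1404 and 1313 CPM with losartan, and the 10 fibroblast markers were 156 and 132 CPM untreated and 178 and 154 CPM with losartan. Of these, 9 or 10 were detected in each library. When the 10% of nuclei richest in markers of these 3 classes were left out, an alternative chosen after the data were seen, the log2 change was -1.21 with an adjusted p of 0.059 in the thick ascending limb and -0.95 with an adjusted p of 0.269 in the distal convoluted tubule.

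The 2 clusters that make up the thick ascending limb class differed from each other. One, of 1478 nuclei, had 51.7 and 114 CPM of Cp untreated and 14.6 and 27.0 CPM with losartan. The other, of 2615 nuclei, had 68.5 and 27.6 CPM untreated and 26.5 and 24.3 CPM with losartan. In this larger cluster, untreated library 2 lay close to both losartan libraries. The close untreated values of the whole class, 61.9 and 65.3 CPM, thus combine clusters whose untreated libraries differed in opposite directions. Neither cluster was tested alone. Hps3, the gene on the strand opposite Cp, had 41.0 and 35.5 CPM untreated and 39.2 and 39.2 CPM with losartan in the thick ascending limb (log2 0.08, adjusted p = 0.938).

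Over all 15 classes, with the thick ascending limb and distal convoluted tubule included, Cp estimates were below 0 in 13, and the libraries of the 2 groups were apart with losartan lower in 7, beside 23.1% of the tests of all genes. S3 had a log2 change of -0.93 ± 0.27 (adjusted p = 0.454), mural and mesangial nuclei of -1.05 ± 0.33 (adjusted p = 0.139) and macrophage and dendritic nuclei of -0.995 ± 0.27 (adjusted p = 0.191). Mural and mesangial nuclei had 321 and 194 CPM untreated and 83.3 and 168 CPM with losartan, and macrophage and dendritic nuclei 132 and 144 CPM untreated and 62.7 and 74.2 CPM with losartan. The make-up of the macrophage and dendritic class also differed between the groups, as described below. In parietal epithelium and fibroblasts, the tested classes with the most Cp, values overlapped between groups. Thin limb, the next tested class, had 753 and 589 CPM untreated and 419 and 483 CPM with losartan (log2 -0.52 ± 0.23, adjusted p = 0.999). Its groups did not overlap, beside 17.5% of tested genes lower in that way, and none of 8340 genes was called there (0.0%). Injured proximal tubule nuclei, which had only 26 nuclei in losartan library 1, had more Cp in both losartan libraries (log2 0.44 ± 0.19, unadjusted p = 0.0445, adjusted p = 1.0 by edgeR's quasi-likelihood test).

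The difference between the change in the thick ascending limb and that in each of 14 other classes was tested in 1 model with libraries as a block. For Cp, 4 of the 14 differences were called, beside 0.266% of 185732 tests of all genes. Relative to endothelium the change of Cp in the thick ascending limb was -1.47 ± 0.23 (adjusted p = 0.0171), relative to fibroblasts -1.33 ± 0.20 (adjusted p = 0.0353), relative to parietal epithelium -1.11 ± 0.22 (adjusted p = 0.00855) and relative to podocytes -2.34 ± 0.39 (adjusted p = 2.77e-06). Podocyte Cp rested on losartan library 1, whose 97.2 CPM stood apart from 25.3 CPM in losartan library 2; without library 1 the podocyte change was -0.25. Relative to S1, the class with a like share of Cp nuclei, the difference was -1.08 ± 0.29 and did not pass (adjusted p = 0.359). Its unadjusted p was 0.00404 by edgeR's quasi-likelihood test, and none of 13873 genes passed in that comparison (0.0%). Relative to the distal convoluted tubule the difference was -0.15 ± 0.21 (adjusted p = 0.979). Without the library block none of the 14 differences for Cp was called.

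Heph, the other ferroxidase, had 20.6 and 16.7 CPM untreated and 38.0 and 30.5 CPM with losartan in the thick ascending limb. The groups did not overlap, and the log2 change of 0.91 ± 0.20 did not pass (adjusted p = 0.150). Both thick ascending limb clusters had the same order, with 33.1, 28.5, 59.3 and 50.1 CPM in one and 12.5, 7.71, 25.5 and 21.9 CPM in the other. Over the 10 classes in which Heph was tested, 9 estimates were above 0, 0 were called and the median log2 change was 0.14. The losartan libraries were higher without overlap in 4 of these 10 classes, beside 16.5% of the tests of all genes. Type B intercalated cells, where Heph was highest, were not among these 4.

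**Figure D4:**
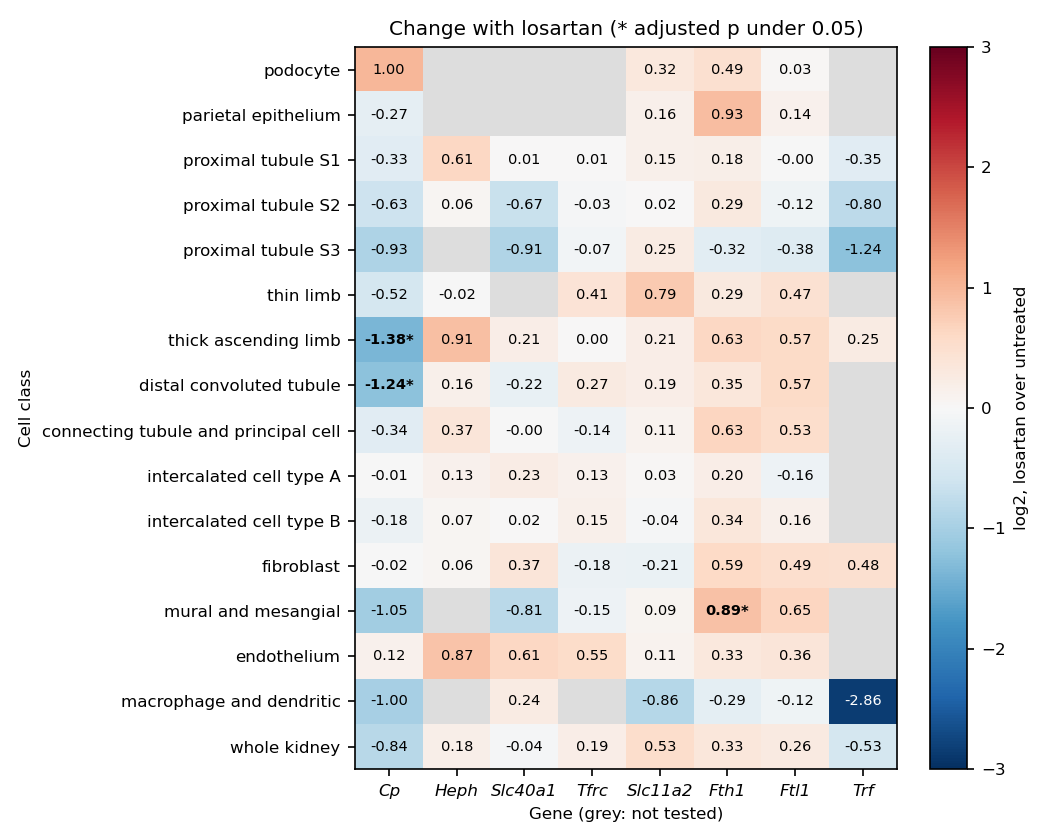
Log2 change with losartan in each tested class and in the whole kidney for the 8 genes, from edgeR; grey cells were not tested and stars mark an adjusted p under 0.05. The 3 starred values are Cp in the thick ascending limb (-1.38) and distal convoluted tubule (-1.24) and Fth1 in mural and mesangial nuclei (0.89).

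Estimates for Slc40a1 differed in sign between classes, and none passed. Fibroblasts, its highest class, had a log2 change of 0.37 ± 0.12 (adjusted p = 0.393), with both losartan libraries above both untreated ones. S2 nuclei had 48.8 and 40.8 CPM untreated and 29.4 and 24.8 CPM with losartan (log2 -0.67 ± 0.16, adjusted p = 0.106), and S3 nuclei had 14.9 and 12.6 CPM untreated and 8.23 and 5.73 CPM with losartan (log2 -0.91 ± 0.30, adjusted p = 0.521). The groups were apart upward in 3 and downward in 3 of 12 tested classes, beside 16.5% and 23.1% of the tests of all genes.

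Neither uptake gene was called in any class. Tfrc had 0 calls in 12 tested classes, 0 with an unadjusted p under 0.05 (9.6% of the tests of all genes had), and a median log2 change of 0.01. In the thick ascending limb all 4 libraries lay within 61.9 to 63.9 CPM. Slc11a2 had 0 calls in 15 classes, 0 with an unadjusted p under 0.05, and a median of 0.11. DESeq2 called neither gene in any class.

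Fth1 rose in mural and mesangial nuclei, the contractile cells of vessels and glomeruli, from 292 and 376 CPM untreated to 619 and 651 CPM with losartan. The log2 change was 0.89 ± 0.18 (adjusted p = 0.0442), in a class where 210 of 9022 genes were called (2.33%). Ftl1 had 184 and 199 CPM untreated and 305 and 311 CPM with losartan there (log2 0.65 ± 0.17, adjusted p = 0.0864). In the same nuclei the summed level of 9 proximal tubule markers was 3944 and 2808 CPM untreated and 8023 and 8546 CPM with losartan, all 9 being detected in each library, and mitochondrial transcripts made up 0.578% and 0.948% of UMIs untreated and 1.63% and 1.91% with losartan. Leaving out the 10% of nuclei with the highest proximal tubule marker sum gave a log2 change of 0.995 for Fth1 (adjusted p = 0.0205). Leaving out a fixed 10% does not remove transcripts spread over all nuclei, so the part of proximal tubule RNA in the Fth1 rise was not tested. Nor was the part of the mitochondrial share tested. With doublets kept, the change was 0.71 and did not pass (adjusted p = 0.12).

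Over all 15 classes, with mural and mesangial nuclei included, the estimate was above 0 in 13 for Fth1 and in 10 for Ftl1. The groups were apart upward in 5 classes for Fth1 and 6 for Ftl1, beside 16.5% of the tests of all genes. Parietal epithelium had 164 and 207 CPM of Fth1 untreated and 371 and 352 CPM with losartan (log2 0.93 ± 0.21, adjusted p = 0.0594). The thick ascending limb had 165 and 236 CPM of Fth1 untreated and 282 and 319 CPM with losartan (log2 0.63 ± 0.17, adjusted p = 0.232), and 91.2 and 98.8 CPM of Ftl1 untreated and 139 and 135 CPM with losartan (log2 0.57 ± 0.11, adjusted p = 0.106). In S3, where Fth1 was highest, the log2 change was -0.32 (adjusted p = 0.934). Mitochondrial shares in the thick ascending limb were 0.190% and 0.430% untreated and 0.360% and 0.402% with losartan.

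Of the 100 member tests, that of Trf in macrophage and dendritic nuclei had the estimate farthest from 0 and the largest SE. Its UMI counts were 19 and 98 untreated and 1 and 4 with losartan, from 175, 362, 67 and 99 nuclei. In CPM, 95% Poisson intervals were 23.9 to 62.0 and 62.8 to 94.3 untreated and 0.106 to 23.3 and 2.99 to 28.1 with losartan. The log2 change of -2.86 ± 0.62 had an unadjusted p of 0.00172 by edgeR's quasi-likelihood test and did not pass (adjusted p = 0.148). No gene of 7562 was called in this class by that test (0.0%). Thinned to 1000 UMIs, 5.40% (3.65 to 7.66%) of untreated and 0.602% (0.0153 to 3.31%) of losartan nuclei held a Trf UMI, beside 0.478% (0.230 to 0.878%) of untreated thick ascending limb nuclei. Unthinned, the shares were 15.6%, 3.01% and 1.20%, at median depths of 2718, 3007 and 3614 UMIs.

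The class itself differed between the groups. Its 13 own markers summed to 6752 and 10923 CPM untreated and 4118 and 4992 CPM with losartan, and 10 distal convoluted tubule markers summed to 4834 and 3662 CPM untreated and 8110 and 9699 CPM with losartan, 9 or 10 of them being detected in each library. With clusters made at resolution 2, a cluster of 578 nuclei had this name, 145 and 338 untreated and 33 and 62 losartan. Another of 125 nuclei, 30 and 24 untreated and 34 and 37 losartan, was named neutrophil, with distal convoluted tubule markers next. The part of these shifts and of this mix in the Trf result, and in the Cp result of this class, was not tested. Relative to macrophage and dendritic nuclei, the change of Trf in the thick ascending limb was 3.09 ± 0.85 (adjusted p = 0.0413, 1.84% of 13409 genes called), and no such difference was called without the library block or after leaving out untreated library 2 or either losartan library. In fibroblasts the Trf estimate was above 0 (log2 0.48 ± 0.19, adjusted p = 0.516).

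**Figure D5:**
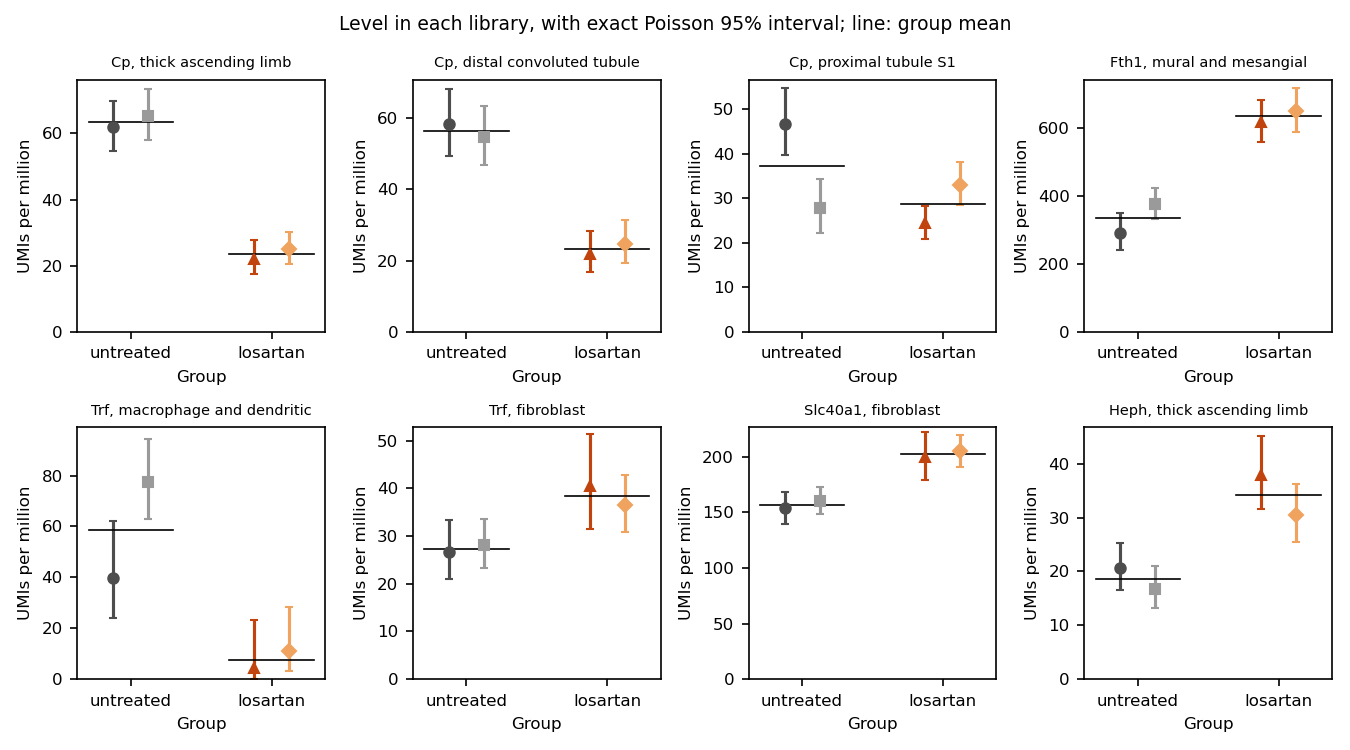
Level in each library in CPM, with exact Poisson 95% intervals for counting error and a line at each group mean, for 8 pairs of gene and class. Cp in the thick ascending limb falls from 61.9 and 65.3 to 22.1 and 25.1 CPM, while Cp in proximal tubule S1 overlaps between groups.

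Beyond the 8 genes, 79 of 81 further genes of iron, heme and copper handling were measured, in 9 role groups: cell uptake, export and ferroxidases, storage and ferritin turnover, plasma carriers, regulation, heme, mitochondrial iron and iron-sulfur clusters, copper, and ferroptosis. Over the 15 classes 2 of 768 tests were called (0.26%, beside 0.336% of all genes), both upward and both for Dab2, an endocytic adaptor that works with megalin. Dab2 had 552 and 452 CPM untreated and 1036 and 1036 CPM with losartan in mural and mesangial nuclei (log2 1.02 ± 0.17, adjusted p = 0.0302). In parietal epithelium it had 301 and 347 CPM untreated and 1078 and 826 CPM with losartan (log2 1.54 ± 0.20, adjusted p = 0.00346, 1.11% of 5576 genes called). Dab2 is well known in the proximal tubule, whose markers were also higher with losartan in the mural nuclei. Whether that bears on either Dab2 call was not tested.

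In the whole kidney 0 of 72 tested genes of the list were called, 24 had an unadjusted p under 0.05 (22.1% of all genes had), and their median log2 change was -0.002 beside -0.013 for all genes. In the uptake group the smallest p belonged to Lcn2, the siderophore-binding lipocalin used as a marker of tubule injury. Lcn2 had 14.9 and 96.0 CPM untreated and 1.54 and 3.13 CPM with losartan (log2 -4.41 ± 0.99, adjusted p = 0.129), and in the thick ascending limb 28.4 and 89.0 CPM untreated and 1.20 and 6.33 CPM with losartan (log2 -3.82 ± 0.70, adjusted p = 0.0991). The untreated libraries differed from each other several-fold, and both lay above both losartan libraries. In the ferroptosis group Slc7a11, the cystine importer, had a log2 change of -1.28 (adjusted p = 0.128), and in the copper group Mt2, a metallothionein, of -0.87 (adjusted p = 0.116). Cpox, an enzyme of heme synthesis, had 0.67 (adjusted p = 0.119), Nfs1, the cysteine desulfurase that supplies sulfur to iron-sulfur clusters, 0.48 (adjusted p = 0.165), Ncoa4, the receptor that delivers ferritin for breakdown, 0.47 (adjusted p = 0.163), and Abcg2, a transporter that exports porphyrins, 0.42 (adjusted p = 0.258). Hpx, which carries heme in plasma, had -1.09 at under 1 CPM (adjusted p = 0.196), and Bach1, a heme-sensing repressor, had 0.33 (adjusted p = 0.157).

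In the thick ascending limb 0 of 61 list genes were called and 6 had an unadjusted p under 0.05 (10.2% of all genes had). By role group the smallest p values there belonged, beside Lcn2, to Epas1, a hypoxia-inducible factor (log2 0.79 ± 0.22, adjusted p = 0.238), Mt1 (-0.63 ± 0.28, adjusted p = 0.517), Abcg2 (0.52 ± 0.26, adjusted p = 0.587), Ppox (-0.41 ± 0.21, adjusted p = 0.591), Pcbp1 (-0.35 ± 0.20, adjusted p = 0.654), Glrx5 (0.35 ± 0.26, adjusted p = 0.755) and Lpcat3 (0.20 ± 0.17, adjusted p = 0.790). Epas1 had 22.2 and 15.6 CPM untreated and 33.5 and 30.02 CPM with losartan, without overlap. No gene of the plasma carrier group other than Trf was tested there.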

How the data were processed

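The authors deposited raw UMI counts per gene and nucleus, written by Cell Ranger 5.0.0 per the file headers; the submitters' processing notes name mm10 and Bowtie 0.12.2 without a role, and strand use is not given in the sources used here. Nuclei with at least 500 UMIs, 300 genes and at most 10% mitochondrial UMIs were kept (510 removed). Scrublet in scanpy 1.11.5 marked 3213 doublets; its automatic threshold worked for untreated library 1 only, so the highest scores were removed in the other 3 at 0.8% per 1000 nuclei. The 8 genes, the wider list and mitochondrial genes were left out of Leiden clustering (3000 variable genes, 30 components, 15 neighbours, resolution 1). Markers were listed beforehand, but the naming thresholds were chosen after the clusters were seen, and names were rebuilt here.

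Counts were summed per class and library and tested with edgeR 4.0.16 (quasi-likelihood, filterByExpr, TMM, 2 against 2, Benjamini-Hochberg over all genes tested in a class); scripts were tested on simulated data. With 2 libraries a group, an exact permutation test could not go below 0.333 and was not used. DESeq2 1.42.0, other scaling, no filter, left-out libraries and other nuclei sets were alternatives. The 8 genes and the lists were chosen with earlier results of these data known. Named list genes are those called, plus the smallest p of each role group in the whole kidney and the thick ascending limb; like-pattern genes are the 3 highest correlations among genes with at least 20 CPM in a class.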

Additional observations from a re-analysis of the deposited data

Results flagged for a closer look

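The change of Cp with losartan in the thick ascending limb differed by test from that in 4 classes, with log2 differences of -1.47 against endothelium, -1.33 against fibroblasts, -1.11 against parietal epithelium and -2.34 against podocytes. The change of Trf in the thick ascending limb differed by test from that in macrophage and dendritic nuclei by 3.09. None of these differences was called without the library block, and podocyte Cp rested on losartan library 1.

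In 4 further cases both libraries of a class too small for the main tests moved opposite to both libraries of the thick ascending limb, and the difference was not tested. The ratio of losartan to untreated mean levels was 0.51 (log2) for Cp and -0.35 for Slc40a1 in injured proximal tubule nuclei. In urothelium it was -0.38 for Heph and -0.89 for Ftl1. None of the 4 changes passed edgeR's quasi-likelihood test within its own class. Log2 changes by that test were -0.17 ± 0.30 (SE, unadjusted p = 0.595) for Slc40a1 and -0.44 ± 0.42 (unadjusted p = 0.322) for Heph. For Ftl1 it gave -1.03 ± 0.38 (unadjusted p = 0.0185, adjusted p = 0.92), and for Cp 0.44 ± 0.19 (unadjusted p = 0.0445). Losartan library 1 held only 26 injured proximal tubule nuclei. Groups of 2 libraries are too small to search for single libraries far from the others.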

How the results depend on the processing

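The 3 calls kept their direction under every alternative run. Cp in the thick ascending limb had a log2 change of -1.37 with no filter on low counts (adjusted p = 0.0813) and -1.21 without nuclei rich in markers of the classes with the most Cp, neither past the threshold, and -1.48 to -1.29 when 1 library was left out. Cp in the distal convoluted tubule had -0.95 without those nuclei, also short of the threshold, and -1.33 to -1.15 when 1 library was left out. Fth1 in mural and mesangial nuclei had 0.71 with doublets kept. The count of member calls over the classes, 3, became 11 with no filter and 1 to 17 when 1 library was left out, 17 without untreated library 2, 9 without untreated library 1 and 1 without losartan library 1. Genes called over the classes, 505, became 1011 with DESeq2, 4990 with no filter, 984 with doublets kept and 421 to 7311 when 1 library was left out, 7311 without untreated library 1. In the whole kidney DESeq2 called 1645 genes, and leaving out 1 library gave 0 to 23. Differences from the thick ascending limb called for Cp were 0 without the library block and 2 to 8 when 1 library was left out, and for Trf 0 without the block and 0 to 1. The cause of these shifts was not tested.

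Groups share replicate numbers, but no label ties a number to a shared animal or batch; deviations of same-numbered libraries correlated at 0.348 over 18402 genes. With the replicate block 11 member calls and 2811 gene calls were made over the classes, and 1 member (Slc11a2) and 1591 genes were called in the whole kidney. With 2 pairs, a batch or animal shared by number cannot be told apart from separate variation of the libraries.

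The level of Heph in type B intercalated cells was 36.2 CPM with doublets kept, and that of Trf in macrophage and dendritic nuclei was 18.3 CPM without untreated library 2. Some estimates that passed no test changed sign when 1 library was left out: the log2 change of Cp ranged from -0.81 to 0.021 in connecting tubule and principal cells, -0.0173 to 0.22 in endothelium, -0.10 to 0.0695 in fibroblasts, -0.82 to 0.53 in type A intercalated cells, -0.61 to 0.0161 in parietal epithelium, -0.25 to 1.63 in podocytes and -0.66 to 0.12 in S1, and that of Slc40a1 in the whole kidney from -0.0858 to 0.0087. Every kept nucleus had at least 1839 UMIs, so a minimum of 1000 removed none. With doublets kept no cluster was named macrophage and dendritic, so there is no value for it.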
